A study of Mus musculus with 3 samples.

Results

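Mitochondrial oxidative phosphorylation genes were examined in 3 sorted cell populations of the mouse, each measured on 1 Agilent one-color array. They were taken as the nuclear genes whose symbols name a subunit of NADH dehydrogenase (*Ndufa*, *Ndufb*, *Ndufc*, *Ndufs* or *Ndufv*), succinate dehydrogenase (*Sdha* to *Sdhd*), the cytochrome bc1 complex (*Uqcr* and *Cyc1*), cytochrome c (*Cycs*), cytochrome c oxidase (*Cox4* to *Cox8*) or ATP synthase (*Atp5*), without pseudogenes. A probe was assigned to such a gene through the RefSeq transcript it carries. This gave 86 genes with 117 probes, of 20145 genes with 26582 probes that could be named and 55681 mouse probes in all. The 86 genes comprise 35 of complex I, 4 of complex II, 9 of complex III, *Cycs*, 20 of complex IV and 17 of complex V. *Ndufa4* and *Ndufa4l2* were counted with complex IV, where the NDUFA4 protein is now placed.

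Oxidative phosphorylation takes place in the inner mitochondrial membrane. Complexes I and II pass electrons from NADH and succinate to ubiquinone, complex III passes them to cytochrome c, and complex IV hands them to oxygen. The protons pumped on the way drive ATP synthase (complex V). Most subunits are encoded in the nucleus and are made in nearly every cell, while several complex IV subunits also exist as second isoforms that are known from heart, muscle, lung or testis. Differentiation of pluripotent cells into neurons is known to be accompanied by a shift from glycolysis towards oxidative phosphorylation.

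The MGE GFP+ cells were sorted from the medial ganglionic eminence (MGE), the embryonic source of many cortical interneurons, of E12.5 embryos that carried an *Lhx6-GFP* bacterial artificial chromosome (BAC) on a CD1 background and are labelled female. The ES GFP+ and ES GFP- cells were the fractions positive and negative for the reporter, sorted out of embryoid body aggregates of J14 embryonic stem (ES) cells, a male line of 129S4/SvJae background with the same kind of *Lhx6-GFP* BAC, which the labels describe as also carrying a viral enhancer reporter with mCherry. The aggregates were differentiated for 12 days with 100 ng/ml Dkk-1, an inhibitor of Wnt signaling, and with 6 nM SAG, an activator of the hedgehog pathway, added on days 3 and 6, and many aggregates were pooled before the sort. Both ES fractions received the same agents, and both come from 1 transgenic line. In all 3 populations GFP reports a BAC that holds *Lhx6* regulatory sequence and not the endogenous gene. According to the methods, the MGE was dissociated with trypsin and DNase I. The aggregates were dissociated with a kit enzyme, with a Rock inhibitor in all solutions. MGE-derived and ES-derived cells therefore differ in strain, labelled sex, culture and dissociation as well as in origin, and these cannot be told apart.

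All 3 arrays were on 1 slide. With 1 array per population the differences have no replicate check and no statistical test between populations was possible, so that no p-value is given. Levels are log2 intensities less the 75th percentile of the mouse probes on the same array, so that a gene at 0 stands at that percentile. Levels of different genes come from different probes and were not set against each other. The only error that could be measured was that between repeat spots of a probe on an array, with an SD of 0.14 on each array, and a difference between arrays was called larger than the spot error beyond 2 SDs of a difference, which was 0.40 on the log2 scale in each comparison (1.32-fold). This error holds no variation between embryos, cultures, sorts or amplifications. Of the 117 probes of the oxidative phosphorylation genes, 1 had repeat spots. The error thus came almost wholly from other probes, and was applied unchanged to dim probes and to means over probes. Differences were counted from 2-fold upwards.

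The arrays were not equally bright in their dim probes. The share of mouse probes well above background was 90.6% on the ES GFP+ array, 80.3% on the ES GFP- and 77.1% on the MGE GFP+ array, and the 95th percentile of the control probes for adenovirus and ERCC sequences lay at intensities of 379, 212 and 152, respectively. The median of all genes followed: it stood at 0.27 for ES GFP+ minus ES GFP- cells, at -0.06 for MGE GFP+ minus ES GFP- cells and at -0.36 for MGE GFP+ minus ES GFP+ cells. Of the 86 oxidative phosphorylation genes, 84 had a probe well above background on every array and 75 lay above the 75th percentile on every array. They were therefore set both against all genes and against the 5787 genes with a probe above that percentile on every array, called bright genes here.

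The labels were checked against marker genes. All 8 markers of MGE-derived GABAergic neurons were at least 2-fold higher in both GFP+ populations than in ES GFP- cells, among them *Lhx6* itself (levels 2.27, 4.90 and 5.67 in ES GFP-, ES GFP+ and MGE GFP+ cells). Of all genes 24.0% were so in ES GFP+ and 9.90% in MGE GFP+ cells, and of bright genes 3.80% and 11.5%. In ES GFP+ cells, 5 of 6 markers of neural progenitors and cycling cells were at least 2-fold lower than in ES GFP- cells. That held for 6.40% of all genes and 3.11% of bright genes. Fewer cells of a type and less RNA per cell cannot be told apart in such bulk samples.

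The promoters of a few genes are shown to give the sequence context of the values that follow. They are *Cox6b2*, whose level differed most between the populations, its widely expressed partner *Cox6b1*, and *Cycs*. By the mean of its probes, *Cycs* was the gene furthest higher in MGE GFP+ than in ES GFP+ cells. Nuclear oxidative phosphorylation genes are known for promoters with sites for the ETS factor GABPA (nuclear respiratory factor 2), for NRF1 and for YY1. RefSeq windows of 300 bases, from 250 before to 50 after the transcription start (build GRCm38.p6), were available for 69 of the 86 genes (74 windows). The core letters CCGGAAG (ETS), GCATGCG (NRF1) and ATGGCGG (YY1) were searched on both strands, and these are shown in capitals. A match is a description of the letters and not evidence of binding.
Cox6b1 (chr7:30626065-30626364, minus strand): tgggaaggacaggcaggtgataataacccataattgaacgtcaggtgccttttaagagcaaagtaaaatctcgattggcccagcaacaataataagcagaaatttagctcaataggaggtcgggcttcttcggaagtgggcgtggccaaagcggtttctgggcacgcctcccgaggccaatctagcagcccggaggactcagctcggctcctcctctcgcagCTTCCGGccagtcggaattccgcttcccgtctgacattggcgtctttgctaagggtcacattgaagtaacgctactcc
Cox6b2 (chr7:4753045-4753344, minus strand): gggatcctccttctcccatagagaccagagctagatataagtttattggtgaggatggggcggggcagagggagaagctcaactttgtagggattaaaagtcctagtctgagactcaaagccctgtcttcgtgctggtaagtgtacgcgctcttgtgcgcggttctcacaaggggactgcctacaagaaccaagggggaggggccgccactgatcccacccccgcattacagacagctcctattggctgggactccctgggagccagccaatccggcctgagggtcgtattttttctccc
Cycs (chr6:50566520-50566819, minus strand): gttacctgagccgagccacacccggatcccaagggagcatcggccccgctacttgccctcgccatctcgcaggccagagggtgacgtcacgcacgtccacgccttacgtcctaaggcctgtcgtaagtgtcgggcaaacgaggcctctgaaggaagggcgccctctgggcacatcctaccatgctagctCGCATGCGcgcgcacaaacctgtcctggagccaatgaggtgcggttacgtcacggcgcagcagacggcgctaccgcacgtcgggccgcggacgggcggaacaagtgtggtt

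The *Cox6b1* window held the ETS core once, on the opposite strand. The *Cycs* window held the NRF1 core once on each strand in 1 overlapping stretch, and the *Cox6b2* window held none of the 3 cores. Over the 74 windows the ETS core was in 23.0%, against 11.6% of 21263 windows of all protein-coding genes. The NRF1 core was in 16.2% against 4.44%, and the YY1 core in 14.9% against 5.25%. Each of the 3 cores holds a C followed by G. The member windows had a median of 19 such pairs and 57.5% GC, against 13 and 56.3% in all windows. The part of base composition in these shares was not tested. Of the 69 genes with a window, 32 (46.4%) held at least 1 core, against 21.1% of 17492 genes. The 4 tissue-limited isoforms with a window held 0 cores, as did 33 of the 65 other members.

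The first comparison was between the GFP+ and GFP- fractions of the same aggregates, and shows how cells that had switched on the *Lhx6* reporter differed from the rest of the culture. Most oxidative phosphorylation genes were slightly lower in ES GFP+ cells. Of 85 genes compared, 64 were below 0, where 35.5% of all genes and 47.6% of bright genes were, and the median difference was -0.30 (1.23-fold lower), with the 25th and 75th percentiles at -0.49 and -0.01. This median lay 0.57 below that of all genes and 0.33 below that of bright genes (relative medians of -0.57 and -0.33). Both stayed below 0 under 9 alternative ways of processing, between -0.62 and -0.18 against all genes and between -0.33 and -0.22 against bright genes. Single genes were mostly within the spot error: 31 genes were lower beyond it, 3 were higher, and 51 lay within it. Beside this, 18% of all genes lay at or below -0.40 and 18% of bright genes at or below -0.43. The 56th percentile of all genes and the 78th of bright genes lay at 0.39 and 0.40. Only 2 genes were at least 2-fold lower, *Cox6b2* and *Ndufb4*, where 6.40% of all genes were, and 1 was at least 2-fold higher, *Cox8c*, where 24.0% of all genes were. Among bright genes these backgrounds were 3.11% and 3.80%. Scaling to the 50th percentile in place of the 75th raised the count of genes at least 2-fold lower to 17.

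The second comparison set cells of the embryo against the GFP- culture, and the third set the MGE GFP+ against the ES GFP+ cells, the question being how far the ES-derived cells match their counterparts from the embryo. MGE GFP+ minus ES GFP- cells gave a median of 0.01 over 84 genes (-0.13 to 0.31 under the alternatives), with 42 above 0, where 47.4% of all genes and 63.4% of bright genes were. Relative to all genes this was 0.06, a sign that turned to between -0.19 and -0.03 under quantile normalization, the deposited log2 values, intensities without background subtraction, normexp correction and a floor at the control probes, and relative to bright genes it was -0.21 and stayed below 0 throughout. Here 2 genes were at least 2-fold higher, where 9.90% of all and 11.5% of bright genes were, and 6 were at least 2-fold lower, where 17.2% and 4.73% were. MGE GFP+ minus ES GFP+ cells gave a median of 0.33 (1.26-fold higher) over 85 genes, of which 65 were above 0 against 36.4% of all genes and 63.8% of bright genes.

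The third comparison therefore depended on the reference. Relative to all genes the median was 0.69, and relative to bright genes it was 0.12. Across the alternatives the first ranged from 0.06 to 0.77 and the second from 0.05 to 0.15. At least 2-fold higher were 5 genes, where 5.48% of all genes and 7.60% of bright genes were, and at least 2-fold lower were 5 genes, where 32.2% of all and 3.53% of bright genes were. Scaling to the 50th percentile raised the former count to 49. The 3 comparisons share arrays, so that a departure of the ES GFP+ array enters the first and the third with opposite signs. Of the 84 genes above background on every array, 54 had their lowest level on that array, 17 on the MGE GFP+ and 13 on the ES GFP- array, while 40 had their highest level on the MGE GFP+, 35 on the ES GFP- and 9 on the ES GFP+ array. These counts were not made over all genes or bright genes. They thus describe the members alone and do not show a departure from the other genes.

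**Figure D1:**
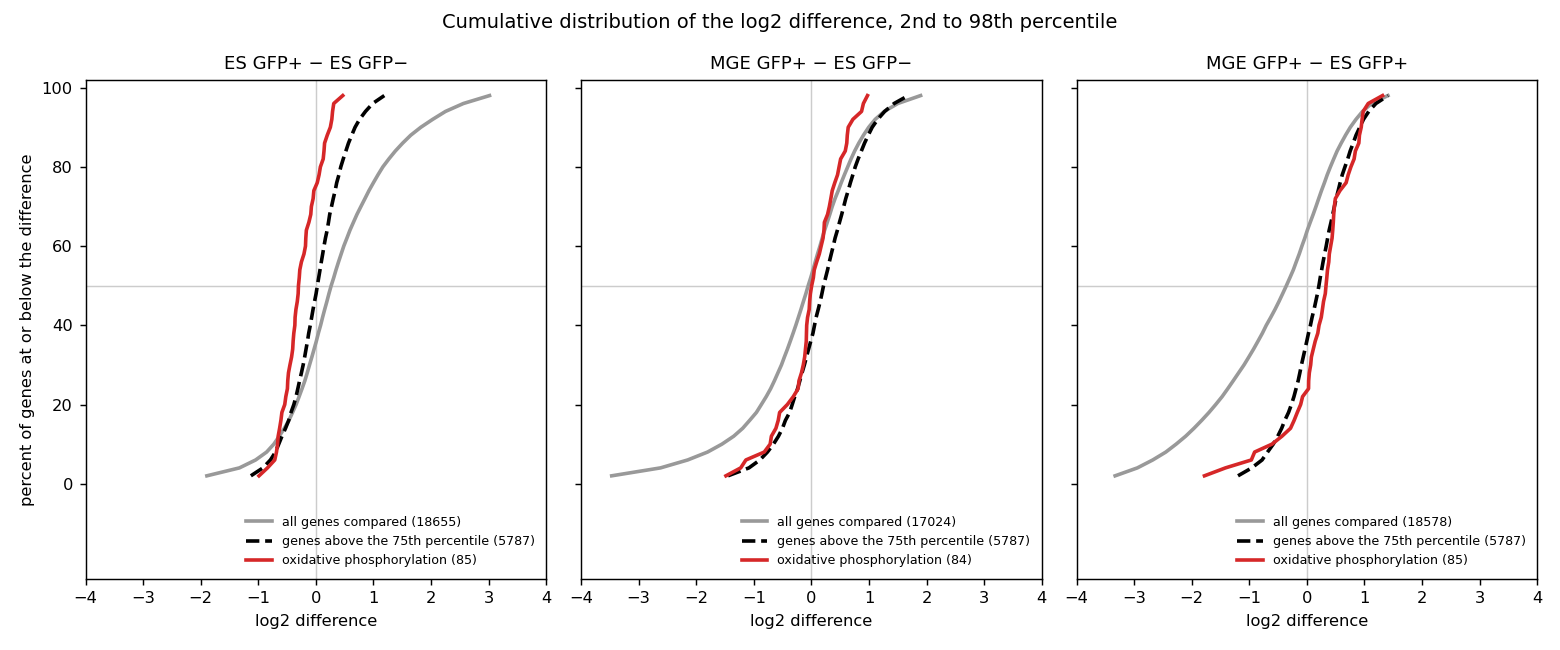
Cumulative distribution of the log2 difference (horizontal axis, 75th percentile scaling) for the oxidative phosphorylation genes (red), the bright genes (black, dashed) and all genes compared (gray), in each of the 3 comparisons; the vertical axis is the percent of genes at or below a difference. The red curve crosses 50% at -0.30, 0.01 and 0.33, to the left of the bright genes in the first and second panels and slightly to the right of them in the third.

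**Figure D2:**
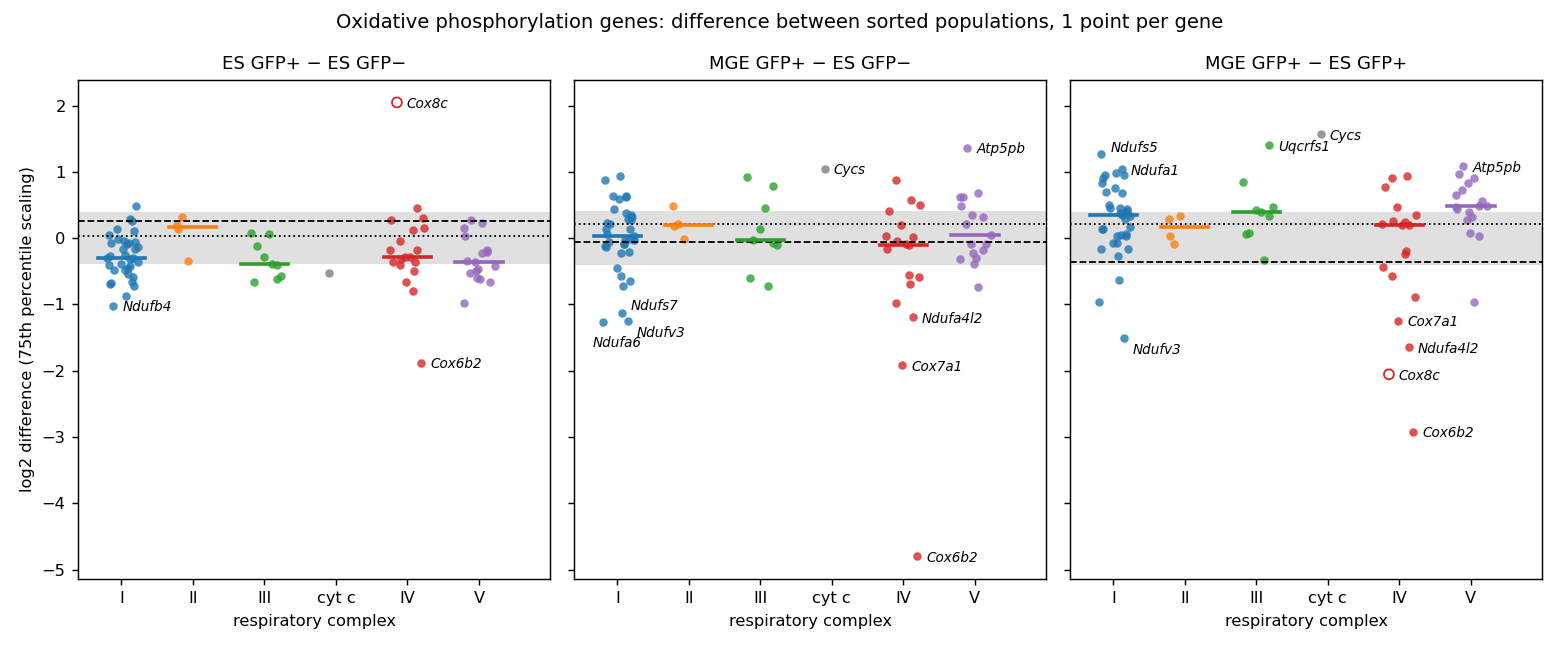
Log2 difference of each oxidative phosphorylation gene by complex in the 3 comparisons, with 1 point per gene, a bar at the median of each complex, the spot error of 0.40 either way in gray, and the medians of all genes (dashed) and bright genes (dotted). Named genes differ at least 2-fold, open circles are lower bounds, and *Cox6b2* is the lowest point in each panel.

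Complex I, the entry point for electrons from NADH, followed the whole group. Of its 35 genes, 29 were below 0 in ES GFP+ against ES GFP- cells (median -0.30). Below 0 there were 35.5% of all genes and 47.6% of bright genes. In MGE GFP+ against ES GFP+ cells 27 of the 35 were above 0 (median 0.35). There 36.4% of all genes and 63.8% of bright genes were above 0. Relative to bright genes these medians were -0.33 and 0.14. Between MGE GFP+ and ES GFP- cells the median was 0.03. The medians of complexes I, III and V kept their signs under every alternative in ES GFP+ against ES GFP- and in MGE GFP+ against ES GFP+ cells, whereas between MGE GFP+ and ES GFP- cells the sign of each turned under at least 1 alternative. The 7 core subunits, which carry the flavin and the iron-sulfur clusters, had medians of -0.49 for ES GFP+ minus ES GFP-, 0.23 for MGE GFP+ minus ES GFP- and 0.16 for MGE GFP+ minus ES GFP+ cells, and their members differed in direction.

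*Ndufs7*, the core subunit next to the ubiquinone site, had levels of 4.15 in ES GFP-, 3.28 in ES GFP+ and 3.01 in MGE GFP+ cells. It was highest in the GFP- culture, by 0.87 over ES GFP+ cells and by 1.14 over MGE GFP+ cells (2.20-fold). *Ndufs1*, the largest core subunit, had levels of 1.56, 1.52 and 2.50 and went the other way, 0.94 and 0.98 higher in MGE GFP+ cells than on the ES arrays. *Ndufs3* (4.09, 3.41 and 4.32) and *Ndufv2* (3.48, 2.82 and 3.77) were lowest in ES GFP+ cells. *Ndufs8* (-0.31, -0.80 and -0.87) was highest in ES GFP- cells. *Ndufv1*, the flavoprotein that takes electrons from NADH, stayed within the spot error on all arrays (2.51, 2.38 and 2.54).

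Among the 28 accessory subunits, which surround the core, *Ndufb4* had levels of 2.30, 1.28 and 2.24 in ES GFP-, ES GFP+ and MGE GFP+ cells. It was thus 2.03-fold lower in ES GFP+ than in ES GFP- cells, and its 2 probes gave -0.99 and -1.05. *Ndufs5* (2.41, 2.01 and 3.29) and *Ndufa1* (2.71, 2.29 and 3.32) were highest in MGE GFP+ cells, by 2.42-fold and 2.05-fold over ES GFP+ cells.

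*Ndufa6* and *Ndufv3* were lowest in MGE GFP+ cells. *Ndufa6* had levels of 3.35, 3.05 and 2.09, a difference of -1.26 from ES GFP- and of -0.96 from ES GFP+ cells. *Ndufv3*, a subunit bound near the flavoprotein, had levels of 0.93, 1.20 and -0.31, and lay 2.37-fold below ES GFP- and 2.84-fold below ES GFP+ cells. Its 2 probes ran the same way in both comparisons, with -1.94 and -1.07 against ES GFP+ cells. *Ndufa7* was 0.72 lower in ES GFP+ than in ES GFP- cells, and *Ndufc2* was 0.29 higher there, which was within the spot error.

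Complex II, the enzyme shared with the citric acid cycle, differed little between the arrays. *Sdha*, the flavoprotein, had levels of 1.96, 2.16 and 2.45 in ES GFP-, ES GFP+ and MGE GFP+ cells. *Sdhb*, the iron-sulfur subunit, had 2.28, 1.93 and 2.27. The membrane anchors *Sdhc* (0.99, 1.13 and 1.16) and *Sdhd* (0.86, 1.17 and 1.08) varied by 0.31 at most by gene means. The 2 probes of *Sdhc* differed in sign between MGE GFP+ and ES GFP+ cells, at -0.39 and 0.46. Of the 12 differences among these 4 genes, the 0.49 of *Sdha* between MGE GFP+ and ES GFP- cells passed the spot error. The signs of the differences of *Sdha*, *Sdhc* and *Sdhd* between the ES fractions turned negative under scaling to the 50th percentile.

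Complex III, which passes electrons from ubiquinone to cytochrome c, had medians of -0.38, -0.03 and 0.39 over 9 genes in the same order of comparisons. *Uqcrfs1*, the Rieske iron-sulfur protein, had levels of 4.04 in ES GFP-, 3.43 in ES GFP+ and 4.83 in MGE GFP+ cells. It was 2.64-fold higher in MGE GFP+ than in ES GFP+ cells, and stayed at least 2-fold higher under every alternative (1.17 to 2.15). *Uqcrb* (4.05, 4.12 and 4.96) was also highest in MGE GFP+ cells, over its 3 probes, while the core proteins *Uqcrc1* and *Uqcrc2* differed by 0.42 at most.

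*Cycs*, the carrier between complexes III and IV and a trigger of apoptosis when released, had levels of 0.07, -0.45 and 1.11. It was 2.06-fold higher in MGE GFP+ than in ES GFP- cells and 2.96-fold higher than in ES GFP+ cells, the highest of the 85 genes compared in the latter comparison. Its 3 probes gave 1.11, 1.59 and 1.99 there. Against ES GFP- cells the ES GFP+ cells had -0.52, and the probes spread more widely than those of any other gene, from -1.15 at the dimmest probe to -0.12.

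Complex IV, cytochrome c oxidase, held the genes that differed most. Its 12 widely expressed subunits followed the group, with medians of -0.23, 0.03 and 0.25 in the 3 comparisons, of which those with MGE GFP+ cells changed sign under quantile normalization, and none of the 12 was at least 2-fold apart. *Cox5a*, which with *Cox4i1* lies next to the catalytic core, had levels of 3.86, 3.81 and 4.73 in ES GFP-, ES GFP+ and MGE GFP+ cells and was 0.91 higher in MGE GFP+ than in ES GFP+ cells. *Cox4i1* itself (3.92, 4.05 and 3.82) stayed within the spot error on all arrays.

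The 8 tissue-limited isoforms were *Cox4i2* (lung), *Cox6a2*, *Cox7a1* and *Cox8b* (heart and muscle), *Cox6b2*, *Cox7b2* and *Cox8c* (testis) and *Ndufa4l2*, a target of the hypoxia response. The 6 that could be compared between MGE GFP+ and ES GFP- cells were all below 0, with a median of -1.08, and the 7 compared between MGE GFP+ and ES GFP+ cells likewise, with a median of -1.25. Above 0 were 47.4% of all genes and 63.4% of bright genes in the former comparison, and 36.4% and 63.8% in the latter. Most of these isoforms were dim, however. *Cox6a2*, *Cox8b*, *Ndufa4l2*, *Cox7b2* and *Cox8c* lay within the range of the control probes on all 3 arrays, and *Cox4i2* and *Cox7a1* did so on the ES GFP+ and MGE GFP+ arrays.

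*Cox6b2* was the exception. It had a level of 2.89 in ES GFP- cells (an intensity of 6230), of 1.01 in ES GFP+ cells (1504) and of -1.91 in MGE GFP+ cells (153, next to the control probes' 95th percentile of 152). The 3 arrays were thus in clear order, with the GFP- culture highest and the embryo at the control range. Compared with ES GFP- cells, *Cox6b2* stood 3.67-fold lower in ES GFP+ and 27.8-fold lower in MGE GFP+ cells. The ES GFP+ and MGE GFP+ cells differed 7.57-fold. Under the alternatives the log2 differences stayed between -2.32 and -1.77, between -4.80 and -4.27 and between -2.92 and -2.17. Since the gene has 1 probe, no second probe bears on these values.

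*Cox6b1*, the widely expressed form of the same subunit, which sits on the outer face of the enzyme, had levels of 3.31, 3.00 and 3.27 and stayed within the spot error on all arrays. Of 4 markers of pluripotent cells, *Dppa5a* and *Pou5f1* ran in the same order as *Cox6b2*. *Dppa5a* had levels of 2.49, -2.01 and -3.88 in ES GFP-, ES GFP+ and MGE GFP+ cells, and *Pou5f1* had -0.46, -1.96 and -3.28. *Zfp42* was lowest in MGE GFP+ cells (-1.84, -1.38 and -4.38), while the *Nanog* probe was bright on every array (8.22 to 8.61). The number of these 4 markers above the control range was 4 in ES GFP- cells and 1, *Nanog*, in each of the GFP+ populations. Their part in the *Cox6b2* result was not tested.

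*Cox7a1* had levels of -0.88, -1.55 and -2.80. It was above the control range in ES GFP- cells and was 3.77-fold lower in MGE GFP+ cells, a difference that stayed at least 2-fold under every alternative (-1.92 to -1.04). The 2.38-fold difference between MGE GFP+ and ES GFP+ cells fell below 2-fold under some (-1.25 to -0.45). The widely expressed *Cox7a2* (4.61, 4.44 and 4.63) was level on the 3 arrays, and *Cox7a2l*, a factor of respiratory supercomplexes (3.82, 4.09 and 3.65), was 0.44 lower in MGE GFP+ than in ES GFP+ cells, a sign that turned under scaling to the 50th percentile.

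*Ndufa4l2* had levels of -2.61, -2.15 and -3.80, and in MGE GFP+ cells stood 2.28-fold below ES GFP- and 3.14-fold below ES GFP+ cells, but within the control range throughout, and the log2 differences shrank to -0.24 and -0.15 under the alternatives. *Ndufa4* (2.02, 1.74 and 2.22) ran the other way, 0.48 higher in MGE GFP+ than in ES GFP+ cells. *Cox8c* was well above background on the ES GFP+ array alone, with a level of -3.52, at least 4.13-fold above ES GFP- and at least 4.15-fold above MGE GFP+ cells when the latter are set at the floor, and these bounds fell to 0.45 and -0.15 on the log2 scale in the deposited values and after quantile normalization, respectively. *Cox7b2* was not well above background on any array. *Cox4i2* (-1.99, -2.49 and -2.69), *Cox6a2* (-2.10, -2.50 and -3.07) and *Cox8b* (-3.28, -2.97 and -3.86) were all lowest in MGE GFP+ cells. Their differences from ES GFP+ cells changed sign under an alternative. Markers of striated muscle and heart were mostly dim: of 8, the number above the control range was 3, 2 and 1 in ES GFP-, ES GFP+ and MGE GFP+ cells, their summed level in units of the 75th percentile was 1.14, 2.33 and 1.14, and their part in the levels of the heart and muscle isoforms was not tested.

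The widely expressed partners of these isoforms were bright on every array. *Cox6a1* (3.23, 3.39 and 3.73) was 0.50 higher in MGE GFP+ than in ES GFP- cells. *Cox7b* (4.23, 3.86 and 4.80) was highest in MGE GFP+ cells as well, by 0.94 over ES GFP+ cells. *Cox8a* (4.35, 3.56 and 3.80) was highest in ES GFP- cells, by 0.79 over ES GFP+ cells.

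**Figure D3:**
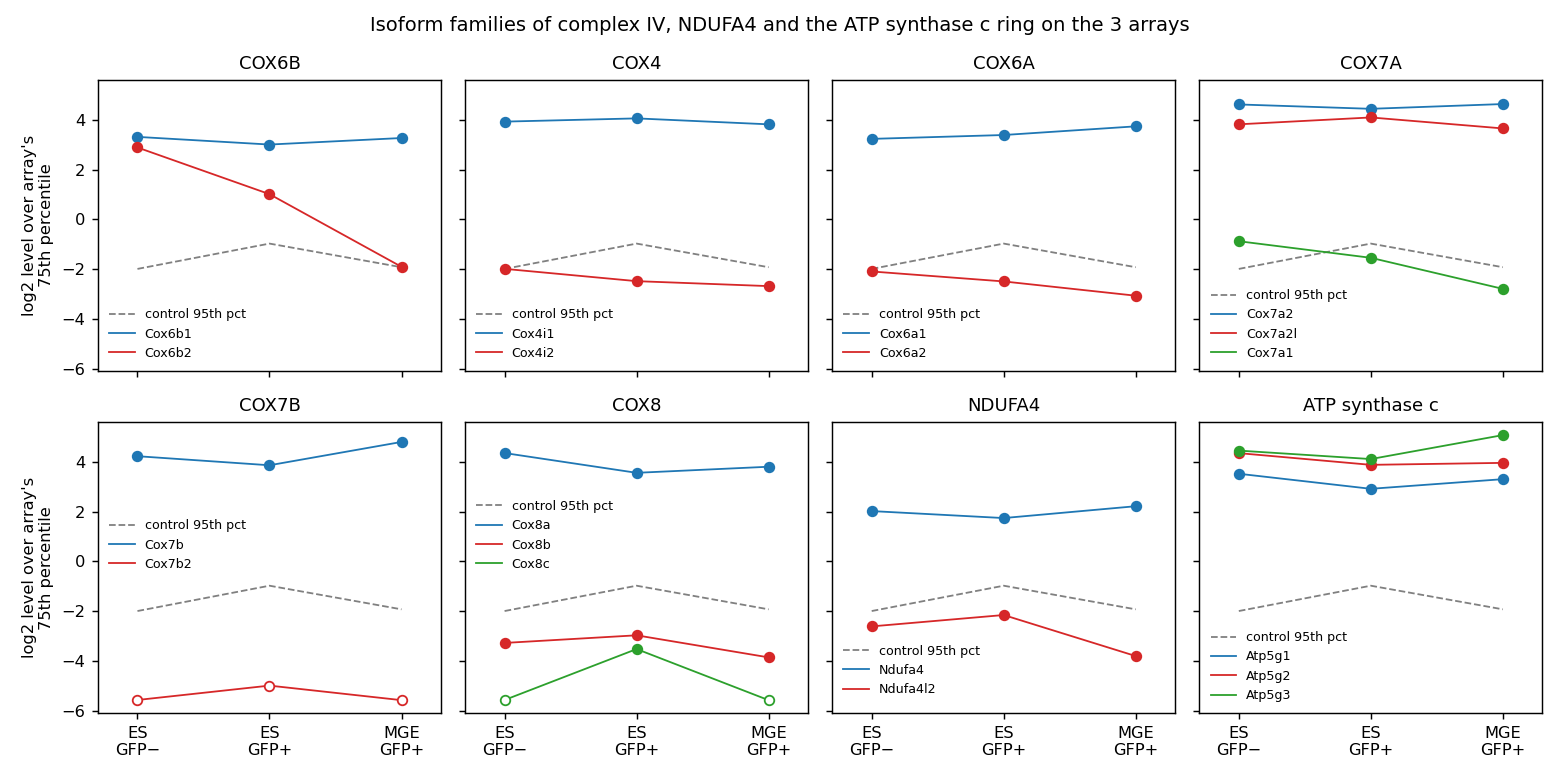
Levels of the isoform families on the 3 arrays, as log2 intensity over each array's 75th percentile, with 1 line per gene, filled points where a probe was well above background, open points at the floor and the 95th percentile of the control probes as a dashed line. Lines are to be read along the arrays and not against each other; *Cox6b2* runs from 2.89 to -1.91 while *Cox6b1* stays between 3.00 and 3.31.

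Complex V, ATP synthase, had medians of -0.36, 0.05 and 0.48 over 17 genes. In MGE GFP+ against ES GFP+ cells 16 of the 17 were above 0, where 36.4% of all genes and 63.8% of bright genes were. Relative to bright genes the median was 0.27 there. In the F1 head, which makes ATP, the catalytic *Atp5b* had levels of 4.00, 3.48 and 4.21 in ES GFP-, ES GFP+ and MGE GFP+ cells, and its partner *Atp5a1* had 4.35, 4.50 and 4.97. Both were highest in MGE GFP+ cells, but *Atp5b* was lower in ES GFP+ than in ES GFP- cells (-0.52), whereas *Atp5a1* differed between them by 0.15, within the spot error. *Atp5e*, the epsilon subunit of the central stalk, had 4.05, 3.08 and 3.73 and was 1.96-fold lower in ES GFP+ than in ES GFP- cells. *Atp5d*, the delta subunit of that stalk, had 0.96, 1.20 and 0.23 and was the 1 gene of complex V below 0 in MGE GFP+ against ES GFP+ cells, at -0.96.

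*Atp5pb*, the b subunit of the peripheral stalk, which keeps the head from turning, had levels of 1.09, 1.37 and 2.45. It was 2.57-fold higher in MGE GFP+ than in ES GFP- cells, the highest of the 84 genes compared, and 2.12-fold higher than in ES GFP+ cells. Its 2 probes gave 1.42 and 1.31 in the first of these. The difference from ES GFP- cells stayed at least 2-fold under every alternative (1.17 to 1.67).

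The ring of c subunits, which turns as protons pass, is made from 3 genes whose mature proteins are the same and whose import sequences differ. *Atp5g1* (3.52, 2.92 and 3.30) and *Atp5g2* (4.35, 3.88 and 3.96) were highest in ES GFP- cells, although *Atp5g1* stood 0.09 higher in MGE GFP+ than in ES GFP- cells under scaling to the 50th percentile, and *Atp5g3* (4.45, 4.11 and 5.08) in MGE GFP+ cells, by 0.62 over ES GFP- and by 0.96 over ES GFP+ cells. The 5 remaining subunits, among them *Atp5md* and *Atp5mpl*, were all below 0 in ES GFP+ against ES GFP- cells and all above 0 in MGE GFP+ against ES GFP+ cells, with medians of -0.36 and 0.49. Of bright genes 47.6% were below 0 in the former comparison and 63.8% above 0 in the latter, and of all genes 35.5% and 36.4%.

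Over all complexes, 13 of the 86 genes differed at least 2-fold between any of the arrays, 65 differed beyond the spot error between any, and 20 stayed within it throughout. The same counts over all genes are not given here, so that these describe the members alone. Of the differences beyond the spot error, 33 of 34, 36 of 37 and 42 of 46 in the 3 comparisons kept their sign under every alternative, the exceptions being *Ndufa4l2*, *Cox8b* and, in the third comparison, *Cox6a2*, *Cox7a2l*, *Cox8b* and *Ndufa13*. Of 3, 8 and 10 genes that differed at least 2-fold, only 1, 3 and 3 did so under every alternative: *Cox6b2* in each comparison, *Atp5pb* and *Cox7a1* in the second, and *Cycs* and *Uqcrfs1* in the third. In 23 genes with several probes, no gene had probes beyond the spot error in opposite directions. Probes of the same gene did differ in sign in 5, 6 and 2 of the 23 in the 3 comparisons. They lay further apart than the spot error in 5, 9 and 10.

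Other genes of the mitochondrion were taken from fixed lists. Between the ES fractions, the 75 genes of the mitochondrial ribosome, which makes the subunits encoded in mitochondrial DNA, were most like the oxidative phosphorylation genes. Of them 52 were below 0, where 35.5% of all genes and 47.6% of bright genes were. Their medians in the 3 comparisons were -0.25, -0.07 and 0.21, and relative to bright genes -0.27, -0.28 and 0.01. The citric acid cycle (-0.15) came nearer to the oxidative phosphorylation genes (-0.21) in the second comparison. Carriers and outer membrane proteins (0.14) came nearer to them (0.12) in the third. *Mrpl40* (-1.08) and *Mrpl50* (0.56) were the lowest and highest between the ES fractions. The 46 assembly factors compared there had a median of 0.10, a sign that turned under scaling to the 50th percentile and quantile normalization. Relative to all genes this median was -0.17, and relative to bright genes it was 0.07. Below 0, where 35.5% of all genes and 47.6% of bright genes were, lay 21 of these assembly factors, and 25 lay above it. Among them *Lyrm7*, a chaperone of the Rieske protein, was not well above background on either ES array, so that the 3.29 by which MGE GFP+ exceeded ES GFP- cells and the 2.71 over ES GFP+ cells are lower bounds set by the floor, and its probe lay within the control range in MGE GFP+ cells as well. *Atpaf1*, which assembles the F1 head, was 1.63 lower in MGE GFP+ than in ES GFP- cells, with its probe above the control range in ES GFP- cells alone.

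Of 22 regulators of these genes, 2 were at least 2-fold higher and 0 lower in ES GFP+ against ES GFP- cells. Of all genes 24.0% were higher and 6.40% lower there, and of bright genes 3.80% and 3.11%. In MGE GFP+ against ES GFP- cells 1 was higher and 1 lower, where 9.90% and 17.2% of all genes and 11.5% and 4.73% of bright genes were. In MGE GFP+ against ES GFP+ cells 3 were higher and 3 lower, where 5.48% and 32.2% of all genes and 7.60% and 3.53% of bright genes were. *Nrf1*, which codes for the factor of the NRF1 core above, had levels of -0.32, -0.11 and 0.06 in ES GFP-, ES GFP+ and MGE GFP+ cells. *Tfam*, the packaging and transcription factor of mitochondrial DNA, had -0.45, -0.26 and -0.61. Both stayed within the spot error. *Gabpa*, the ETS factor, had -2.52, -1.31 and -2.03 and was 1.21 higher in ES GFP+ than in ES GFP- cells, but 1 of its 2 probes lay within the control range on every array. *Ppargc1a*, a coactivator of mitochondrial genes, had -1.15, -1.67 and -0.91 and was 0.76 higher in MGE GFP+ than in ES GFP+ cells. Its level in ES GFP+ cells lay below the control probes' 95th percentile of that array, at -0.98. *Esrrb*, which is known both as a pluripotency factor and as a relative of the mitochondrial regulator *Esrra*, had -0.30, -1.15 and -4.65, the lowest of the 22 regulators in MGE GFP+ against either ES population, and lay above the control range in ES GFP- cells alone.

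In the citric acid cycle, whose 17 genes had medians of -0.08, 0.06 and 0.17 with signs that each turned under an alternative, *Suclg2*, the subunit of the GTP-forming succinyl-CoA ligase, was the lowest in all 3 comparisons. It lay within the control range on all arrays and was not well above background in MGE GFP+ cells, so that it stood at -1.80 between the ES fractions, while the -3.49 and -1.69 of MGE GFP+ cells are bounds set by the floor. *Pdhb* of pyruvate dehydrogenase was 1.77 higher in MGE GFP+ than in ES GFP+ cells. Among 24 carriers and outer membrane proteins the medians were -0.05, 0.31 and 0.35. *Slc25a5*, an ADP/ATP carrier that exports the ATP made by complex V, was 1.56 lower in ES GFP+ than in ES GFP- cells. The subunits encoded in mitochondrial DNA were not analysed here.

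The genes of the hypoxia response went further than any of these lists. Of 12 genes, 8 stood at least 2-fold below ES GFP- cells in the MGE GFP+ population (median -2.45) and 8 stood so below ES GFP+ cells (median -1.51), where 17.2% and 32.2% of all genes and 4.73% and 3.53% of bright genes were. Under the alternatives these medians ran from -2.45 to -0.86 and from -1.94 to -0.77, and the counts from 5 to 9 and from 5 to 8. In MGE GFP+ cells 2 of the 12 genes were at the floor. *Ldha*, which turns pyruvate into lactate, had levels of 4.26 in ES GFP-, 3.27 in ES GFP+ and 0.88 in MGE GFP+ cells. The glucose transporter *Slc2a1* had 2.49, 0.25 and -0.80, and *Pdk1*, which holds pyruvate back from the mitochondrion, had -1.55, -1.12 and -3.90, above the control range in ES GFP- cells alone. These 3 genes were thus all lowest in MGE GFP+ cells. Against ES GFP- cells, 11 of the 12 genes were below 0 in MGE GFP+ cells, the exception being *Ankrd37* at 0.62. Against ES GFP+ cells, 9 were below 0 and 3 above, with *Ddit4* highest at 0.34.

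**Figure D4:**
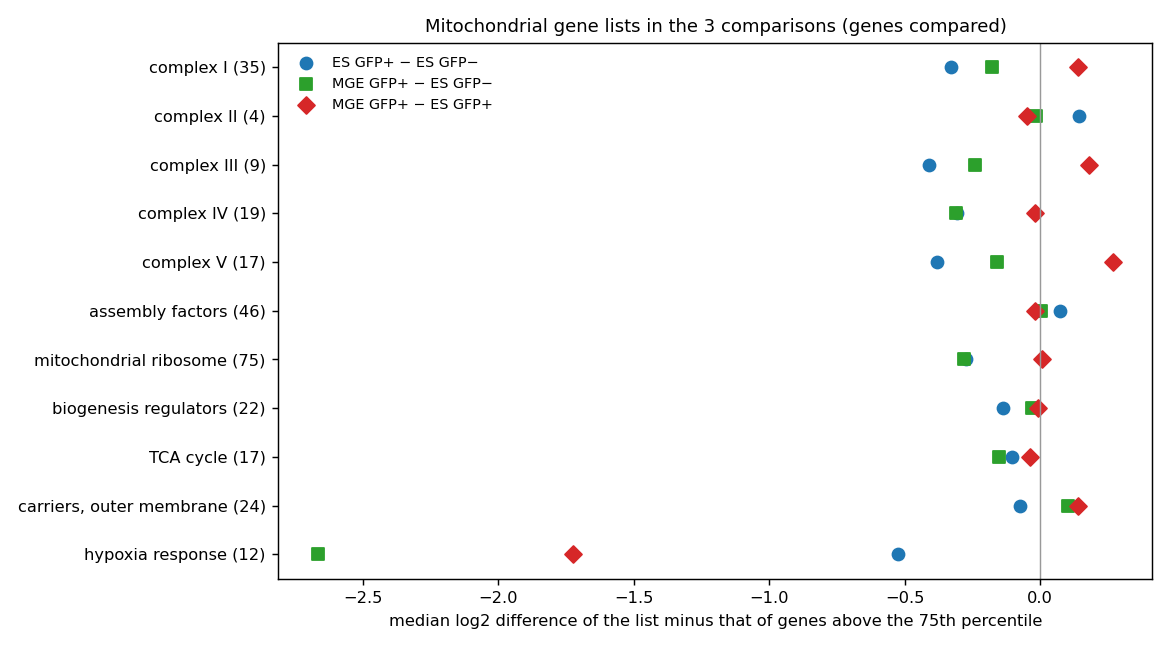
Median log2 difference of each complex and each mitochondrial or hypoxia list, less the median of the bright genes, in the 3 comparisons; the number of genes compared between the ES fractions stands in brackets. The complexes and the mitochondrial ribosome lie between -0.41 and 0.27, and the hypoxia list reaches -2.66.

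Markers of other cells moved with these comparisons. All 4 mesenchymal markers stood at least 2-fold below either ES population in MGE GFP+ cells. Of all genes 17.2% stood so below ES GFP- and 32.2% below ES GFP+ cells, and of bright genes 4.73% and 3.53%. The number of these markers above the control range was 4, 2 and 0 in ES GFP-, ES GFP+ and MGE GFP+ cells. Their summed level on the same scale was 4.57, 3.62 and 0.27. The 6 progenitor and cycling markers summed to 43.5, 8.85 and 12.5. Of 5 erythroid markers, 3 were at least 2-fold higher in MGE GFP+ cells, led by *Hba-a1* (-0.65, -0.21 and 3.38). So were 9.90% of all genes against ES GFP- and 5.48% against ES GFP+ cells, and 11.5% and 7.60% of bright genes. The number of the 5 above the control range was 1 in each population, *Hba-a1*. *Alas2* was 0.06 above ES GFP- cells in MGE GFP+ cells and at -0.54 against ES GFP+ cells. The part of these cells in the differences of the oxidative phosphorylation genes was not tested.

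**Figure D5:**
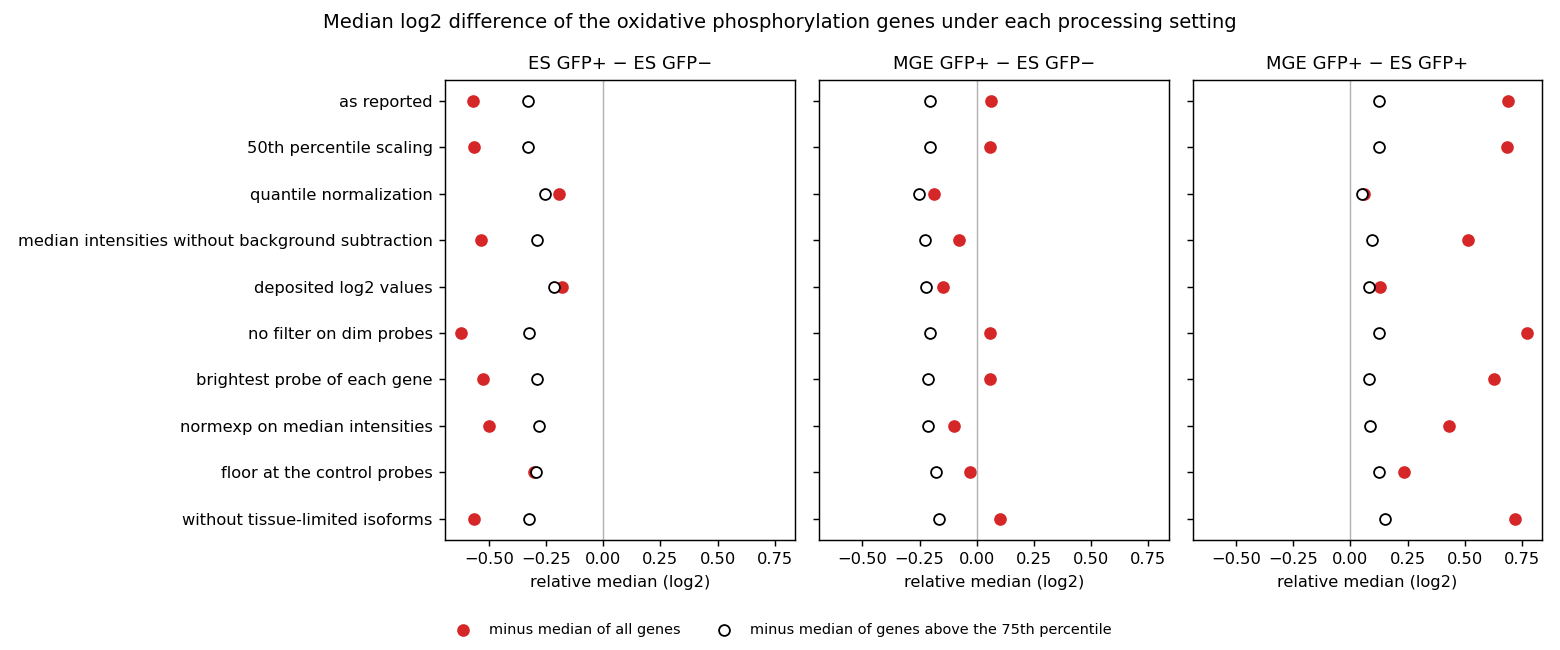
Median log2 difference of the oxidative phosphorylation genes under the processing reported and 9 alternatives, less the median of all genes (filled) or of bright genes (open), in the 3 comparisons. The open points lie within -0.33 to -0.22, -0.25 to -0.17 and 0.05 to 0.15, while the filled points spread further and cross 0 in the second panel.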

How the data were processed

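The authors deposited Agilent Feature Extraction output (version 10.7.3.1 per the file headers), in which the linear intensity of a spot is background-subtracted and not scaled between arrays. They amplified total RNA and labelled it with Cy3. The methods and the labels name different amplification kits and array formats, and the 62976 spots fit the larger format. A second deposited table holds log2 values, which lay within 0.21 of quantile-normalized log2 median intensities without background subtraction for every probe, with column medians of 7.68 to 7.69. Amplification of small samples can compress or distort the level of single genes.

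From the intensities, log2 was taken, outlier spots were left out (137, 135 and 98 on the ES GFP-, ES GFP+ and MGE GFP+ arrays, with 0 saturated), and each array's 75th percentile was subtracted. A probe without the software's call of well above background was raised to the lowest value with it on that array, which gives a bound, and a gene's difference is the mean over its probes called on either array of the pair. Names came from RefSeq accessions (GRCm38.p6), and promoter windows were taken from RefSeq. The spot error came from spots of probes with at least 5 repeats.

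Genes to be named were the 6 highest and 6 lowest per comparison, complex II, *Cycs*, the complex I core, isoform families and dim members, and the extremes of the other lists, of which some are not reported here; *Cox7a2*, *Uqcrc1*, *Atp5b* and further members were added for their roles after their values were seen. The genes and lists were chosen with earlier results of these data known. The computation was tested on simulated arrays. Tools were Python 3.11.15, pandas 2.3.3, numpy 2.4.6, matplotlib 3.10.9, and R 4.3.3 with limma 3.58.1 (normexp).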

Additional observations from a re-analysis of the deposited data

How the results depend on the processing

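With 1 array per population, no replicate could be left out, and signal over background limits what dim isoforms can show. No oxidative phosphorylation gene that differed at least 2-fold changed sign in the alternatives run, but most fell below 2-fold in at least 1 of them, 2 of 3, 5 of 8 and 7 of 10 in the comparisons below. No paired analysis was possible because each population has 1 array. Naming by the array design's own symbols and normexp on mean intensities were not run, as the columns used here hold neither; normexp (offset 50) on median intensities replaced the latter and, like the floor at the control probes and the set without tissue-limited isoforms, was chosen after seeing the data. The comparisons follow in the order ES GFP+ minus ES GFP-, MGE GFP+ minus ES GFP- and MGE GFP+ minus ES GFP+, and the cause of each change was not tested.

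The relative medians reported above (-0.57, 0.06 and 0.69) became -0.19, -0.19 and 0.061 with quantile normalization, -0.18, -0.15 and 0.13 in the deposited log2 values, and -0.33, -0.21 and 0.12 against bright genes. The first and the third became -0.30 and 0.24 with the floor at the control probes, and the third 0.43 with normexp. Counts of genes at least 2-fold apart moved most with scaling to the 50th percentile: 17 were lower in the first comparison (2 as reported), 7 higher and 2 lower in the second (2 and 6), and 49 higher and 2 lower in the third (5 and 5). Quantile normalization gave 0 higher and 4 lower in the first and 3 higher in the third. The deposited values gave 0 higher and 1 lower in the first, 1 higher in the second, and 2 higher and 3 lower in the third. Without the filter on dim probes 2 were higher in the first. The brightest probe gave 1 lower in the first and 1 higher in the second. Normexp gave 3 lower in the third, and the control floor 0 higher in the first and 2 lower in the third. Without tissue-limited isoforms 0 were higher and 1 lower in the first, 3 lower in the second and 1 lower in the third.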
